A study of Rattus norvegicus with 6 samples.

Results

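The vesicle fusion machinery was examined in RNA sequencing of sensory tissue from 3 male rats with painful diabetic neuropathy (PDN) and 3 male control rats. PDN is damage to peripheral nerves in diabetes that comes with pain. The tissue is labelled sensory neuron, and the title of the series names the dorsal root ganglion, where the cell bodies of sensory neurons lie. The sources used here give neither the strain and age of the rats nor the way diabetes was induced. The members were chosen by gene name alone: synaptotagmins (17 genes), syntaxins (14), syntaxin-binding proteins (7), VAMPs (7), Snap25 and Snap29, complexins (4) and Munc13 genes (4). This gave 55 of the 22536 genes, and 46 of the 55 passed the filter for testing, which asked for 1 FPKM or more in 3 or more libraries. FPKM is the number of fragments scaled to transcript length and library size, so that levels of different genes can be set side by side. Snap23, which the name rule also allows, matched none of the 22536 genes by name, so it was not analysed here.

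Secretory vesicles fuse with a target membrane when a SNARE protein on the vesicle (a VAMP) zips into a bundle with SNAREs on the target membrane (a syntaxin and a SNAP25-type protein). Sec1/Munc18 proteins and Munc13 proteins bring the syntaxin into the bundle, complexins hold the partly zipped bundle ready, and synaptotagmins sense the calcium that triggers fusion. Sensory neurons use this machinery to release glutamate and neuropeptides and to insert channels and receptors into their membranes, while every cell uses related SNAREs between its endosomes, lysosomes, Golgi and endoplasmic reticulum.

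Depth, estimated from the deposited tables, was about 52000000 to 63000000 fragments per library, and the members made up 0.741% to 0.809% of the FPKM of a PDN library and 0.723% to 0.791% of a control library. All 20 sensory neuron markers were tested, and their summed FPKM ran from 9163 to 10300 in PDN and from 9268 to 10615 in controls. Markers of Schwann cells summed to 3466 to 4196 FPKM in PDN and 3511 to 4300 in controls, and satellite glia markers to 1650 to 1789 in PDN and 1604 to 1870 in controls, so RNA of these cells was measured as well. Spinal cord markers did not exceed 0.733 FPKM in any library. Skeletal muscle markers summed to 163 FPKM in PDN 3 and 505 in control 2, against 1.92 to 31.0 in the other 4 libraries, and results are also given without PDN 3 and control 2.

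None of the 46 tested members differed between PDN and control rats past an adjusted p of 0.05 in limma, a linear model fitted to log2(FPKM + 1) of 13282 genes with Benjamini-Hochberg adjustment over all of them. Over all tested genes the share past that threshold was 0.0%, and 4.72% had an unadjusted p under 0.05. At an unadjusted p under 0.05, 0 members were higher in PDN, beside 1.83% of all genes, and 1 member, Stx7, was lower, beside 2.89% of all genes. Estimates were higher in PDN for 24 members and lower for 22, which is 52.2% higher, where 43.4% of all tested genes were higher. The median log2 fold change was 0.02 over the members and -0.02 over all genes. In bulk tissue, fewer cells of a type and less RNA per cell cannot be told apart.

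The differences were bounded closely. For 44 of the 46 members, the whole 95% interval of the difference lay within a 1.5-fold change in either direction on the log2(FPKM + 1) scale, as it did for 90.0% of all tested genes. The intervals of the other 2, Syt15 (-0.73 to 0.10) and Stx11 (-0.64 to 0.20), passed that bound on the lower side, and both genes were low in level. The widest interval was that of Stx8 (-0.51 to 0.58), which stayed just inside the bound. The scale understates changes of low genes.

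**Figure D1:**
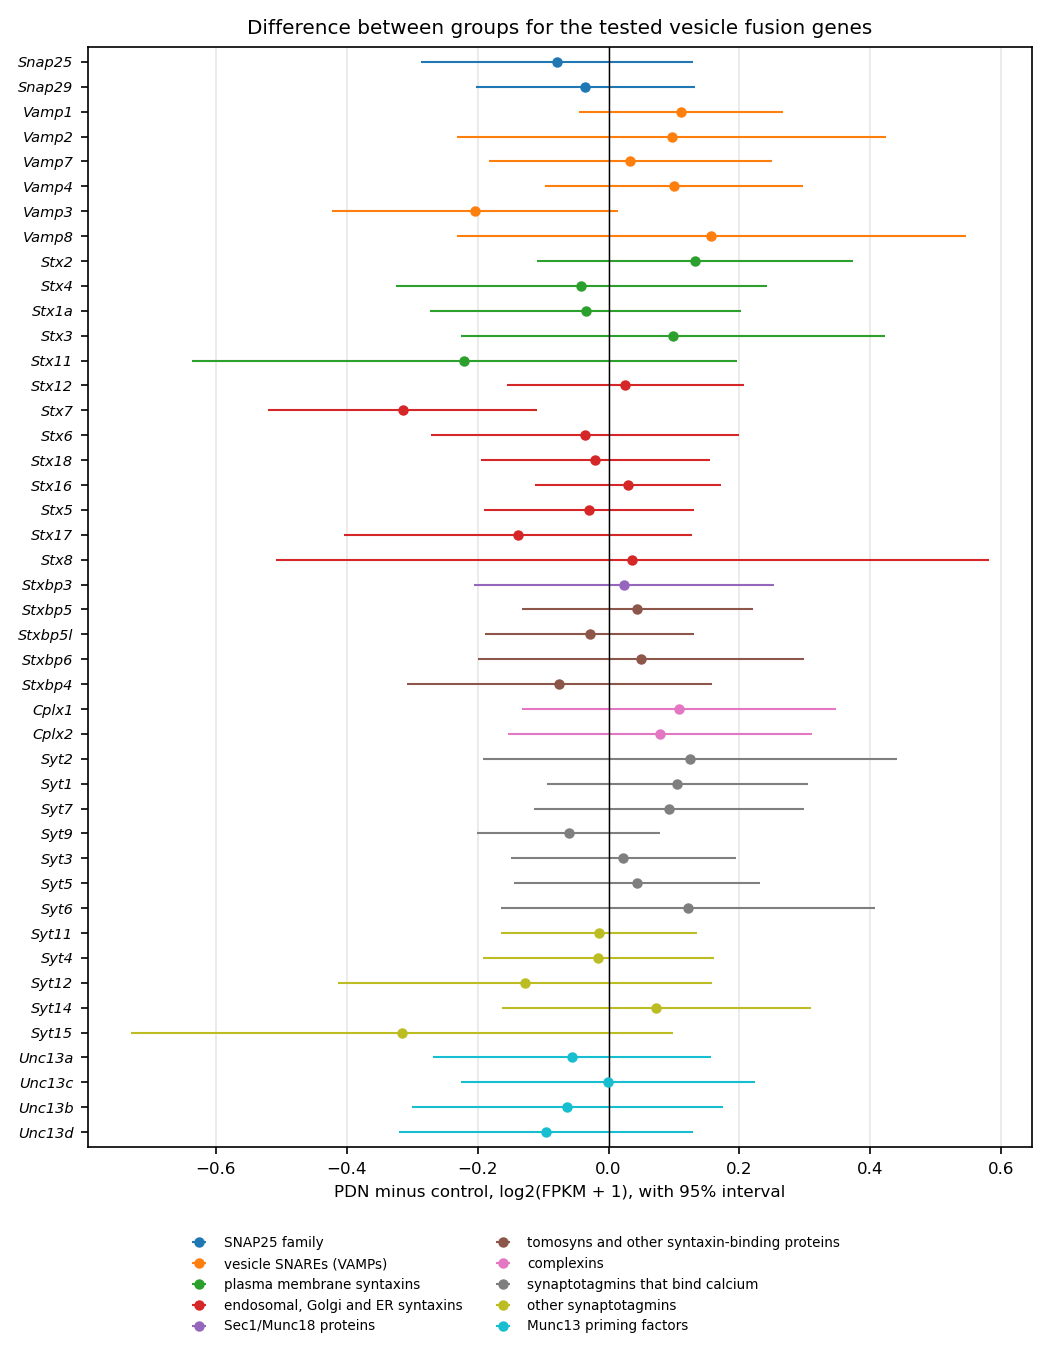
Difference between PDN and control rats for 44 of the 46 tested vesicle fusion genes, on the log2(FPKM + 1) scale (horizontal axis, PDN minus control); points are limma estimates, bars their 95% intervals, and colours the role of the gene. The interval of Stx7 (-0.52 to -0.11) is the 1 interval shown that leaves out 0, before any adjustment for the number of genes.

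Levels spanned from the most abundant genes of the tissue to genes listed at 0. Over the 6 libraries, 7 members averaged over 100 FPKM, 23 lay between 10 and 100, 15 between 1 and 10, and 10 below 1. Snap25 was the highest, and Syt11, Vamp1, Cplx1, Syt4 and Vamp2 were also among these 7. Syt4 and Vamp2 did not differ beyond their spread over the 6 libraries (109 ± 6.15 and 100 ± 14.4 FPKM, SD), whereas Snap25 and Syt11 were apart in 6 of 6 libraries (551 ± 40.8 and 319 ± 9.88). The most abundant syntaxin, Stx12, averaged 80.3 FPKM, and the most abundant Munc13 gene, Unc13a, 14.4 FPKM.

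**Figure D2:**
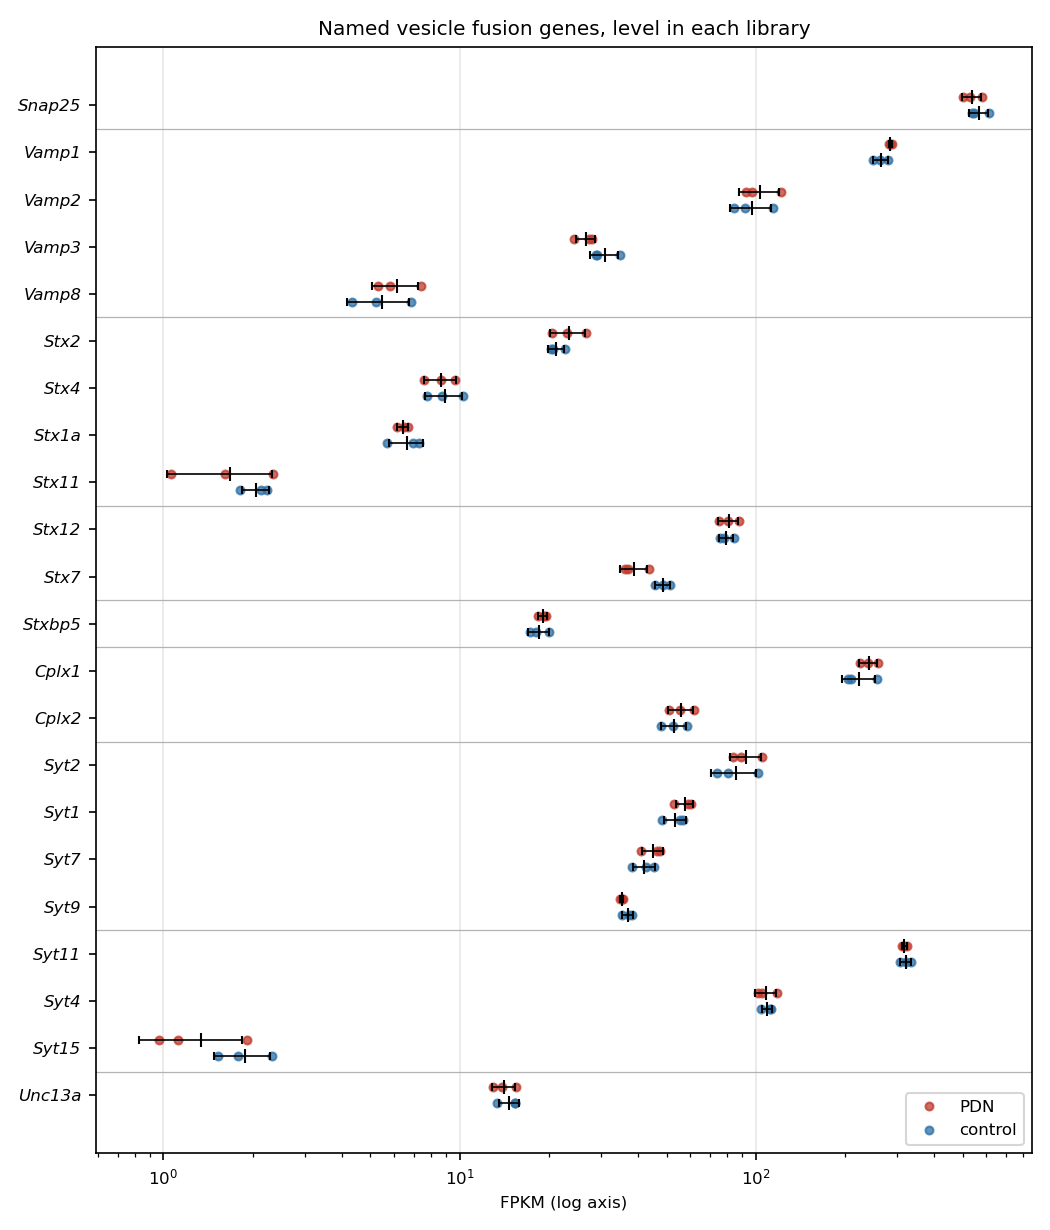
FPKM (horizontal log axis) of 22 vesicle fusion genes in 3 PDN libraries (red, upper line of each pair) and 3 control libraries (blue, lower line); black ticks and bars are mean ± SD, and grey lines separate roles. Snap25 sits highest at 500 to 615 FPKM, and the PDN and control points of most genes overlap, with Stx7, Vamp3 and Vamp1 as the genes shown whose groups do not.

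Snap25 encodes the neuronal plasma membrane SNARE that is cut by several botulinum toxins. It was at 581, 528 and 500 FPKM in PDN 1 to 3 and at 615, 539 and 545 FPKM in control 1 to 3. The groups overlapped, since PDN 1 lay above 2 of the controls. The log2 fold change was -0.08 ± 0.09 (SE, 95% interval -0.29 to 0.13, adjusted p = 0.999 in limma). Its relative Snap29, which acts in endosome and autophagosome fusion, ranged from 14.8 to 16.5 FPKM in PDN and from 15.2 to 16.5 FPKM in controls.

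Among the VAMPs, Vamp1 and Vamp2, the synaptobrevins of synaptic vesicles, dominated. Vamp1 was at 288, 282 and 284 FPKM in PDN 1 to 3 and at 280, 262 and 249 FPKM in control 1 to 3. All 3 PDN values lay above all 3 control values, by a margin of 282 against 280 FPKM at the nearest. The log2 fold change was 0.11 ± 0.07 (SE, 95% interval -0.05 to 0.27), with an adjusted p of 0.999 in limma. Vamp2 was at 122, 97.0 and 92.5 FPKM in PDN 1 to 3 and at 114, 84.7 and 92.0 FPKM in control 1 to 3. Here PDN 1 and control 1 were the high libraries and the groups overlapped (log2 fold change 0.10 ± 0.14, SE). Vamp1 made up 54.5% ± 1.46 of the summed VAMP FPKM in PDN and 53.4% ± 0.464 in controls, and Vamp2 made up 19.8% ± 2.54 in PDN and 19.6% ± 2.28 in control libraries (SD, 3 rats a group).

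The promoters of this pair are shown because Vamp1 stood at 2.76 times the level of Vamp2 in PDN and 2.74 times in controls (geometric means). The sequences are the 250 bases before the RefSeq gene start in build GRCr8, 5′ to 3′ on the gene's strand. Capitals mark the cAMP response element TGACGTCA, which is its own reverse complement, and the GC box GGGCGG on either strand, seen as CCGCCC on the other strand. The 2 motifs do not overlap in them.
Vamp1, chr4:159698644-159698893, plus strand: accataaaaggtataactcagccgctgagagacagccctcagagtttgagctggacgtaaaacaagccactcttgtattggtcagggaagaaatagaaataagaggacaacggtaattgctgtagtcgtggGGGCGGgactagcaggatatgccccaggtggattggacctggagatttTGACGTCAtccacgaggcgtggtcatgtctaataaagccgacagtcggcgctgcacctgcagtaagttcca
Vamp2, chr10:54292539-54292788, plus strand: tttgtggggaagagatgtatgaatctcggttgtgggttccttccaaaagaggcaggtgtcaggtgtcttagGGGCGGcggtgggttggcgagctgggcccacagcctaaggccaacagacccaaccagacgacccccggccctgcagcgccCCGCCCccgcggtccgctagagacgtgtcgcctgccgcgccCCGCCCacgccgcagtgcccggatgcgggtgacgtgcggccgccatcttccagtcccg
Vamp1 holds 1 cAMP response element and 1 GC box, and 11 CG dinucleotides. Vamp2 holds 0 cAMP response elements, 3 GC boxes and 24 CG dinucleotides. Vamp1 was the only 1 of the 44 members with a matched promoter to hold the cAMP response element in this window (2.27% of them, beside 1.59% of all 33469 rat promoters and 2.98% of those of 9609 tested genes). The GC box was found in 27 of the 44 (61.4%, beside 30.5% of all promoters and 60.0% of those of tested genes). These letters describe the windows and nothing was measured about a factor there.

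The other VAMPs serve endosomes, lysosomes and the Golgi. Vamp3, which recycles endosomes to the surface in most cell types, was at 24.4, 27.4 and 28.1 FPKM in PDN 1 to 3 and at 28.8, 34.7 and 29.2 FPKM in control 1 to 3. The groups did not overlap, with the highest PDN library (28.1) just below the lowest control (28.8). Its log2 fold change was -0.20 ± 0.09 (SE, 95% interval -0.42 to 0.01), the unadjusted p was 0.0631 and the adjusted p 0.999 in limma. Vamp4 of the trans-Golgi network ranged from 47.5 to 57.1 FPKM in PDN and from 46.3 to 48.7 in controls. Vamp7, of late endosomes and growing neurites, ranged from 46.6 to 56.4 in PDN and from 46.5 to 52.4 in controls. PDN 2 was the highest library for both.

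Vamp8, a late endosome SNARE, was at 5.82, 7.39 and 5.29 FPKM in PDN 1 to 3 and at 4.32, 5.21 and 6.86 FPKM in control 1 to 3, with overlapping groups. Vamp5, which was described in muscle, was at 1.51, 0.247 and 0.797 FPKM in PDN 1 to 3 and at 1.44, 0.323 and 0.368 in control 1 to 3, and was not tested. The loci of Vamp5 and Vamp8 overlap on chromosome 4 as the file gives them, so which of both a fragment was assigned to is uncertain. Loci of further members, among them Stx8, Stxbp4 and Vamp7, overlap another gene of the table, and the sources used here do not say whether the authors counted by strand.

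Of the 6 plasma membrane syntaxins, 3 had a higher and 3 a lower estimate in PDN. Stx1a, a syntaxin of synapses, was at 6.13, 6.48 and 6.69 FPKM in PDN 1 to 3 and at 7.32, 5.66 and 6.95 FPKM in control 1 to 3, the controls lying on both sides of the PDN libraries. Its estimate was close to 0 (log2 fold change -0.03 ± 0.10, SE, 95% interval -0.27 to 0.20, adjusted p = 0.999 in limma).

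Stx2 and Stx4 act in exocytosis outside synapses, in many cell types. Stx2 was at 20.5, 26.8 and 22.98 FPKM in PDN 1 to 3 and at 20.3, 20.6 and 22.7 FPKM in control 1 to 3. Its log2 fold change of 0.13 ± 0.10 (SE) was among the largest positive estimates of the members, and PDN 1 fell inside the control range. Stx4 ranged from 7.58 to 9.68 FPKM in PDN and from 7.78 to 10.3 in controls, and Stx3, known from apical membranes and retinal synapses, from 1.89 to 2.99 in PDN and from 2.07 to 2.43 in controls. Stx11, which immune cells use to release cytotoxic granules, was at 1.06, 1.61 and 2.35 FPKM in PDN 1 to 3 and at 2.23, 1.81 and 2.13 FPKM in control 1 to 3. PDN 3 was the highest and PDN 1 the lowest of all 6 libraries, and the log2 fold change was -0.22 ± 0.18 (SE, 95% interval -0.64 to 0.20).

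Among the 8 syntaxins of endosomes, the Golgi and the endoplasmic reticulum stood the member with the smallest p. Stx7, which drives fusion of late endosomes with each other and with lysosomes, was at 36.9, 43.6 and 36.3 FPKM in PDN 1 to 3 and at 45.7, 48.8 and 51.2 FPKM in control 1 to 3. Every PDN library lay below every control, with PDN 2 and control 1 nearest to each other. PDN libraries averaged 38.9 ± 4.05 FPKM and control libraries 48.5 ± 2.73 FPKM (SD, 3 rats a group). The log2 fold change was -0.31 ± 0.09 (SE, 95% interval -0.52 to -0.11) with an unadjusted p of 0.00813. The adjusted p in limma was 0.942, so the difference did not pass the threshold. Stx7 made up 14.3% ± 0.753 of the summed syntaxin FPKM in PDN and 17.5% ± 1.13 in controls.

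The promoter of Stx7 is shown as that of the member with the smallest p, with the same length, build, direction and capitals as for the VAMP pair.
Stx7, chr1:23056466-23056715, minus strand: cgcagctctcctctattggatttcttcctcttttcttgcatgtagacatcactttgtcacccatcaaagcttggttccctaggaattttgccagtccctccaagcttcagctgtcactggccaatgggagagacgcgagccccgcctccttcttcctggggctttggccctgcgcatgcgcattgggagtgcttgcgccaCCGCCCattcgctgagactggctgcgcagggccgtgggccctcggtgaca
It holds 0 cAMP response elements, 1 GC box and 12 CG dinucleotides.

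The partners of Stx7 in late endosome fusion had positive estimates, and none had an unadjusted p under 0.05 in limma. The log2 fold change was 0.04 for Stx8 (95% interval -0.51 to 0.58), 0.03 for Vamp7 and 0.16 for Vamp8. Stx8 was at 6.04, 6.12 and 5.68 FPKM in PDN 1 to 3 and at 9.14, 4.09 and 5.01 FPKM in control 1 to 3, so that the controls spread on both sides of the PDN libraries. Vti1b, a further SNARE of that bundle, had a log2 fold change of 0.03 ± 0.08 (SE). Stx12, a recycling endosome syntaxin and the most abundant of all 14, was at 75.2, 87.6 and 80.4 FPKM in PDN 1 to 3 and at 76.0, 84.2 and 78.4 FPKM in control 1 to 3. The groups overlapped throughout (log2 fold change 0.03 ± 0.08, SE).

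Stx6 and Stx16 of the trans-Golgi network, Stx5 and Stx18 of the path between the endoplasmic reticulum and the Golgi, and Stx17 of autophagosomes averaged 6.82 to 15.7 FPKM in PDN and 7.57 to 16.2 in controls. Stx16 was at 12.3 to 12.5 FPKM in PDN and 12.1 to 12.2 in controls. Its groups did not overlap although the log2 fold change was 0.03, with an unadjusted p of 0.633.

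Markers of other cell types are given beside these values. All 6 tested macrophage markers, of 8 listed and found, had negative estimates (median log2 fold change -0.60), and none passed the adjusted threshold (smallest adjusted p = 0.789 in limma, for Cx3cr1). Their summed FPKM over all 8 was 23.8 to 33.4 in PDN and 33.5 to 46.8 in controls, and none of the 8 was at 0 in every library. The groups did not overlap for Csf1r, Cx3cr1, Adgre1 and Aif1 and overlapped for the other 4. Mrc1 averaged 4.04 ± 1.84 FPKM in PDN and 3.87 ± 0.371 in controls (log2 fold change -0.00 ± 0.23, SE), and Cd163, which was not tested, 0.930 ± 0.700 in PDN and 0.508 ± 0.104 in controls (SD, 3 rats a group). All 6 tested fibroblast markers also had negative estimates (median -0.18) and none passed (smallest adjusted p = 0.876 in limma, for Lum), with sums of 318 to 360 FPKM in PDN and 370 to 412 in controls. Negative estimates were found for 2 of 2 tested red blood cell markers (median -0.82), 5 of 6 endothelial markers (median -0.24) and 6 of 8 satellite glia markers (median -0.23). The 1 tested marker of B, T and mast cells was at -0.07. Schwann cell markers had 4 higher and 5 lower estimates (median -0.03), skeletal muscle markers 3 and 3 (0.08) and sensory neuron markers 12 and 8 (0.02). Of all tested genes, 43.4% were higher in PDN. The part of RNA from any of these cells in the values of Stx7, Vamp3 and Stx11 was not tested.

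Over all tested members, the groups did not overlap for 5 (10.9%), beside 9.93% of all tested genes. Higher in PDN were Vamp1 and Stx16, beside 3.69% of all genes, and lower were Stx7, Vamp3 and Unc13d, beside 6.24% of all genes. Stx16 and Unc13d are named here after their values were seen. The share of members with separated groups was thus near that of all genes.

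Sec1/Munc18 proteins clasp the syntaxin and the assembling SNARE bundle. Stxbp3, the form used with Stx4 in non-neuronal cells, ranged from 8.95 to 10.8 FPKM in PDN and from 9.31 to 10.9 in controls, and Stxbp2, the form of blood and epithelial cells, from 0.739 to 1.13 in PDN and from 0.816 to 1.17 in controls. Control 2 was the highest library for Stxbp3, and the groups of both genes overlapped.

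Tomosyns occupy syntaxin in place of a VAMP and so restrain fusion. The tomosyn gene Stxbp5 was at 19.6, 18.4 and 19.3 FPKM in PDN 1 to 3 and at 18.2, 17.3 and 20.1 FPKM in control 1 to 3. The PDN libraries lay inside the control range (log2 fold change 0.04 ± 0.08, SE). Its relative Stxbp5l ranged from 12.2 to 12.8 FPKM in PDN and from 12.0 to 13.3 in controls. The remaining Stxbp4 and Stxbp6, whose products also bind syntaxins, averaged 3.19 and 3.72 FPKM in PDN and 3.41 and 3.56 in controls.

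Complexins were represented by 2 genes. Cplx1 was at 258, 240 and 224 FPKM in PDN 1 to 3 and at 256, 210 and 205 FPKM in control 1 to 3. Control 1 matched the highest PDN library while control 2 and control 3 lay below all PDN libraries, and the log2 fold change was 0.11 ± 0.10 (SE, 95% interval -0.13 to 0.35, adjusted p = 0.999 in limma). Cplx2 was at 61.7, 55.4 and 50.8 FPKM in PDN 1 to 3 and at 52.6, 47.9 and 58.4 FPKM in control 1 to 3, with overlapping groups (log2 fold change 0.08 ± 0.10, SE). Cplx3 and Cplx4, the complexins of retinal ribbon synapses, did not exceed 0.0102 and 0.0605 FPKM in any library. Cplx1 therefore supplied 81.1% ± 0.428 of complexin FPKM in PDN and 80.7% ± 2.67 in controls.

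Of the synaptotagmins that bind calcium, 6 of 7 tested had positive estimates (median log2 fold change 0.09, beside -0.02 over all genes), and none passed the threshold. The count was 6 under both scaling alternatives. It was 5 without control 2 and PDN 3 together, without PDN 1 alone and without PDN 3 alone. The median was 0.03 without control 2 alone, 0.03 without PDN 1 alone and 0.16 without PDN 3 alone. Syt1 and Syt2, the fast sensors of synchronous release, were both abundant. Syt1 was at 59.2, 60.2 and 53.1 FPKM in PDN 1 to 3 and at 56.7, 48.2 and 55.4 FPKM in control 1 to 3. The log2 fold change was 0.11 ± 0.09 (SE, 95% interval -0.09 to 0.31, adjusted p = 0.999 in limma), and PDN 3 lay inside the control range. Syt2 was at 105, 89.3 and 83.8 FPKM in PDN 1 to 3 and at 102, 73.9 and 80.5 FPKM in control 1 to 3, with 1 high library in each group (log2 fold change 0.12 ± 0.14, SE, 95% interval -0.19 to 0.44).

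Syt7, the slow sensor linked to asynchronous release and to lysosome exocytosis, was at 47.4, 46.4 and 40.9 FPKM in PDN 1 to 3 and at 45.3, 38.3 and 42.5 FPKM in control 1 to 3. The groups overlapped (log2 fold change 0.09 ± 0.09, SE). Syt9, a further fast sensor, was at 34.9, 35.4 and 35.7 FPKM in PDN 1 to 3 and at 37.4, 35.2 and 38.1 FPKM in control 1 to 3, and was the 1 calcium-binding member with a lower estimate (log2 fold change -0.06 ± 0.06, SE, 95% interval -0.20 to 0.08). Syt3, Syt5 and Syt6 averaged 14.3 to 17.7 FPKM in PDN and 13.1 to 17.4 in controls. Syt10 stayed at 0.383 to 0.694 FPKM in PDN and 0.230 to 0.568 in controls and was not tested.

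The most abundant synaptotagmin was one whose product does not bind calcium. Syt11, which is linked to membrane retrieval and vesicle traffic, was at 317, 312 and 324 FPKM in PDN 1 to 3 and at 321, 306 and 335 FPKM in control 1 to 3. It supplied 44.1% ± 1.73 of synaptotagmin FPKM in PDN and 45.2% ± 1.11 in controls, and the log2 fold change was -0.01 ± 0.06 (SE, 95% interval -0.16 to 0.14), with a sign that turned with the scaling. Syt4, found on dense-core vesicles, was at 102, 118 and 105 FPKM in PDN 1 to 3 and at 105, 112 and 112 FPKM in control 1 to 3. Its difference was near 0 as well (log2 fold change -0.02 ± 0.08, SE), and its sign also turned with the scaling.

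Syt15 had the most negative estimate of all members at a low level. It was at 1.12, 1.92 and 0.964 FPKM in PDN 1 to 3 and at 2.32, 1.53 and 1.79 FPKM in control 1 to 3, and PDN 2 lay inside the control range. The log2 fold change was -0.32 ± 0.18 (SE, 95% interval -0.73 to 0.10, adjusted p = 0.999 in limma). Syt12 averaged 6.31 FPKM in PDN and 6.97 in controls, and Syt14 averaged 5.84 in PDN and 5.52 in controls. Below the filter, Syt13 ranged from 0.663 to 0.847 FPKM in PDN and from 0.776 to 1.10 in controls, and Syt16 from 0.524 to 1.03 in PDN and from 0.604 to 0.682 in controls. Syt17 did not exceed 0.181 FPKM in any library, and Syt8 was listed at 0 in all PDN libraries and did not exceed 0.0527 in controls.

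Munc13 proteins prime vesicles by opening the syntaxin. All 4 Munc13 genes had a lower estimate in PDN, from -0.10 for Unc13d to just under 0 for Unc13c, and none passed the threshold. The estimate of Unc13c turned positive under both scaling alternatives, which left 3 of 4 lower. Unc13a, the main form of glutamatergic synapses, was at 15.5, 13.0 and 13.9 FPKM in PDN 1 to 3 and at 15.4, 13.4 and 15.4 FPKM in control 1 to 3. PDN 1 and control 1 were alike and the log2 fold change was -0.06 ± 0.09 (SE, 95% interval -0.27 to 0.16, adjusted p = 0.999 in limma). Unc13c, known from the cerebellum, ranged from 8.58 to 9.32 FPKM in PDN and from 8.05 to 10.2 in controls, and Unc13b from 1.55 to 1.68 in PDN and from 1.48 to 1.88 in controls. Unc13d, the form of blood cells, was at 0.908, 0.877 and 1.00 FPKM in PDN 1 to 3 and at 1.02, 1.05 and 1.11 FPKM in control 1 to 3, a log2 fold change of -0.10 ± 0.10 (SE) with an unadjusted p of 0.348.

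Related genes with overlapping roles were then set against each other within a library, since the balance of isoforms can differ where the totals do not. Of 7 listed pairs, 6 were measured. Vamp1 exceeded Vamp2 by 2.37, 2.91 and 3.07 times in PDN 1 to 3 and by 2.45, 3.10 and 2.71 times in control 1 to 3, and the groups overlapped. On the log2 scale the difference was 0.01 (exact two-sided permutation p = 1, adjusted p = 1 over the 6 pairs).

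The remaining pairs also overlapped between the groups. The geometric mean ratio of Syt2 to Syt1 was 1.61 in PDN and 1.59 in controls, and that of Cplx2 to Cplx1 0.232 in PDN and 0.237 in controls. Unc13b stood at 0.115 of Unc13a in PDN and at 0.118 in controls. The tomosyn pair Stxbp5 to Stxbp5l was at 1.53 in PDN and 1.45 in controls (exact permutation p = 0.2), and Stx4 to Stx3 at 3.44 in PDN and 3.89 in controls (exact permutation p = 0.3). All adjusted p-values were 0.9 or 1, and with 3 libraries against 3 the smallest p this exact test can give is 0.1.

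**Figure D3:**
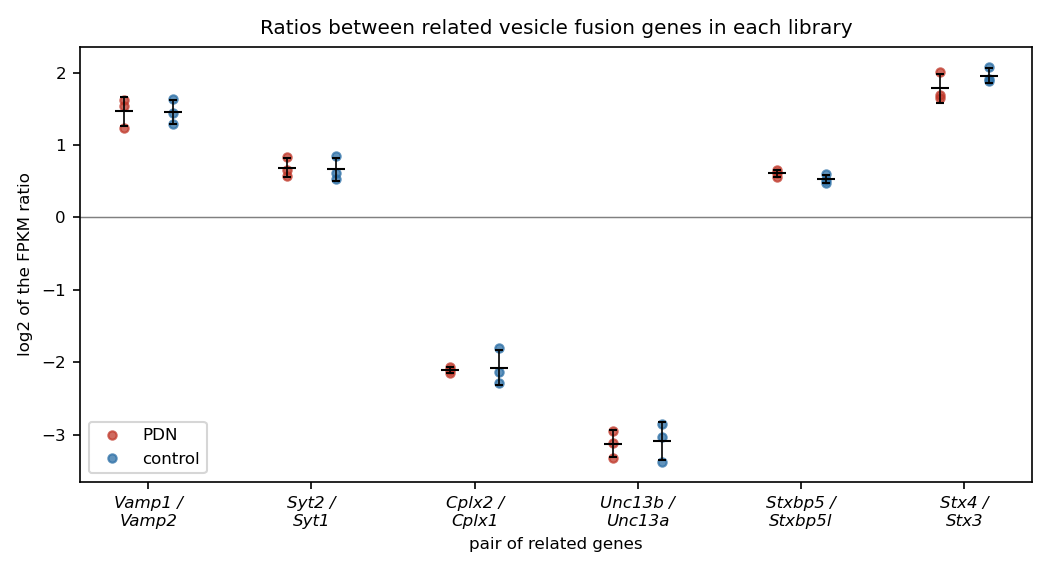
Log2 of the FPKM ratio (vertical axis) for 6 pairs of related genes in 3 PDN libraries (red, left of each pair) and 3 control libraries (blue, right); black bars are mean ± SD. Differences between pairs, from 3.44 for Stx4 over Stx3 to 0.115 for Unc13b over Unc13a (geometric means in PDN), are far larger than those between the groups, which overlap in every pair.

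Variation among libraries within a group was shared by subsets of the members. In both groups the library numbered 1 was the highest of its group for 10 members, among them Snap25, Vamp1, Vamp2, Cplx1, Syt2, Syt3, Syt6 and Syt7. In both groups the same number was the lowest for 12 others, among them Stx2, Stx12, Stx17, Vamp3, Vamp4 and Vamp7. The named members of the first set are synaptic SNAREs, a complexin and synaptotagmins that bind calcium. Of the second set, Snap29, Stx12, Stx17, Vamp3, Vamp4 and Vamp7 are SNAREs of endosomes, autophagosomes or the Golgi. Stx2, Stxbp3, Stxbp4, Stxbp6, Syt4 and Unc13b, also of the second set, are not. The library numbered 2 was the highest in both groups for 5 members and the lowest for 6, and the library numbered 3 for 4 and 4. These sets were read off the values and have no test. The share over all genes is not given beside these counts, so they cannot be read as particular to the members.

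Neurofilament genes of large sensory neurons showed the same high libraries. Nefh was at 1210, 943 and 1150 FPKM in PDN 1 to 3 and at 1264, 1022 and 1014 FPKM in control 1 to 3, and Nefm was at 1383, 1099 and 1275 FPKM in PDN 1 to 3 and at 1541, 1120 and 1133 FPKM in control 1 to 3. The median of the neuron markers, centred on the 6 libraries on the log2(FPKM + 1) scale, was highest in PDN 1 (0.08) and control 1 (0.07) and lowest in control 2 (-0.13). Control 2, the library with the most muscle RNA, was also the lowest of the 6 for 14 members, followed by PDN 1 for 11. The share over all genes is not given beside this count either. Endothelial markers, centred in the same way, were highest in control 2 (0.25) and lowest in PDN 1 (-0.29). The part of these cell types in the members' values was not tested.

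**Figure D4:**
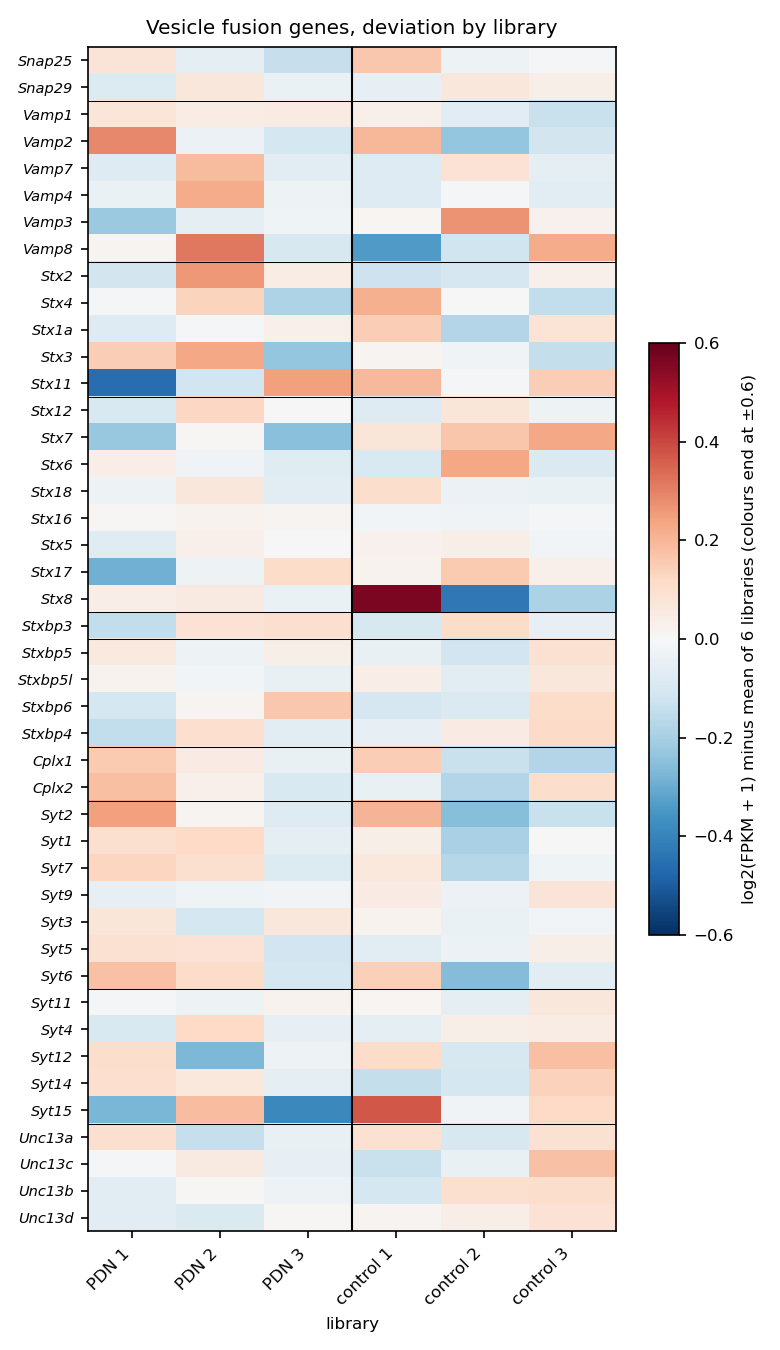
Deviation of 44 tested vesicle fusion genes (rows, grouped by role) from their means over the 6 libraries, on the log2(FPKM + 1) scale, in PDN 1 to 3 (left) and control 1 to 3 (right); red is above and blue below the mean. Vamp2, Syt2 and Cplx1 are red in PDN 1 and control 1 and blue in control 2, and Stx7 is blue or pale in the PDN libraries and red in the controls.

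The rest of the docking and fusion pathway was taken from a list of 78 genes, of which 77 were found and 70 entries were tested. Of these, 41 had a higher and 29 a lower estimate in PDN (median log2 fold change 0.01), and 0 passed the adjusted threshold in limma. That is 58.6% higher, where 43.4% of all tested genes were higher. Sytl2 was listed under separate entries with log2 fold changes of -0.20 and 0.20, so it counts in both directions. At an unadjusted p under 0.05, 1 entry was higher (beside 1.83% of all genes) and 1 was lower (beside 2.89%). Vps33a, the Sec1/Munc18-type subunit of the complexes that tether late endosomes and lysosomes, was at 21.4, 21.9 and 20.4 FPKM in PDN 1 to 3 and at 17.3, 16.7 and 17.6 FPKM in control 1 to 3. The groups were well apart, with a log2 fold change of 0.29 ± 0.06 (SE, 95% interval 0.14 to 0.44), an unadjusted p of 0.0023 and an adjusted p of 0.744. In the whole-number table, treated as a score, its log2 fold change was 0.84, far from the FPKM value, and its adjusted p was 0.049 in limma. Stx7 and Vps33a, which meet at the late endosome, thus had estimates of opposite sign.

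On the lower side, Rab3d, a small GTPase of secretory granules, was at 27.2, 33.8 and 33.2 FPKM in PDN 1 to 3 and at 36.6, 40.6 and 43.0 FPKM in control 1 to 3. All PDN libraries lay below all controls, with a log2 fold change of -0.34 ± 0.10 (SE) and an adjusted p of 0.999 in limma. Rab27a, which docks lysosome-related organelles and dense-core granules, was at 6.83, 7.40 and 8.84 FPKM in PDN 1 to 3 and at 9.01, 9.52 and 8.88 FPKM in control 1 to 3, with an unadjusted p of 0.052. The highest PDN library for Rab27a was just below the lowest control. In the pathway list the groups did not overlap for 5 of the 70 tested entries (7.14%), beside 9.93% of all tested genes. For the counts that follow, 43.4% of all tested genes were higher in PDN. The 13 tested genes of the synaptic vesicle membrane and synapsins had 11 higher and 2 lower estimates (median log2 fold change 0.05), but 5 higher and 8 lower without control 2, and 7 and 6 without PDN 1. The 13 of the active zone had 8 higher and 5 lower (median 0.01), but 5 and 8 without PDN 1 or without control 2, and 6 and 7 with array weights. All 4 genes of NSF and its adaptors, which take spent SNARE bundles apart, had positive estimates, up to 0.15, but 2 of the 4 were negative without control 1 and without control 3.

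Promoter composition was counted for the members with a RefSeq entry. A RefSeq entry was matched for 44 of the 55 members, 37 of them with a mean FPKM of at least 1 and 7 below it. The median number of CG dinucleotides in the 250 bases before the start was 16 in the 37 (range 2 to 41), 5 in the 7 (range 5 to 23), 17 for all tested genes and 5 for all rat promoters. Syt2, an abundant member, held 4.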

How the data were processed

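RNA was measured in 6 libraries, 3 from PDN and 3 from control rats, grouped by sample titles. Trizol was used to extract RNA and the libraries kept strand, per the labels' protocols. The authors deposited a table of FPKM values for 22536 genes. They also deposited a table named for read counts, treated here as a score: for 54.5% to 54.9% of genes above 1000 its values equal, within a relative tolerance of 0.001, FPKM times genomic span times 1 constant per library, and none lies above. Depth was estimated from that constant and rounded. The sources used here name no aligner, quantifier or genome build, and loci are given as in the file.

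The 13282 genes with 1 FPKM or more in 3 or more libraries entered limma 3.58.1 (R 4.3.3) on the log2(FPKM + 1) scale. The variance prior followed the mean level, and group was the only term. The step was tested on simulated data. Exact permutation tests of ratios used SciPy 1.17.1. Alternatives were the pseudocount, the filter, the scaling, robust fitting, library weights, a replicate block, libraries left out and the score table. Intervals cover the spread between libraries, and counting error was not computed because fragments per gene could not be recovered.

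Named genes were 17 measured genes picked for their neuronal or general roles, the highest of each role, the 4 smallest p in each direction, members below the filter, and the 3 smallest p of the pathway list. Vti1b, Stx16 and Unc13d, and ranges of further members, were added after values were seen. Counts cover all members, but values of some single members are not reported here. Members and lists were chosen with earlier results of these data known. Promoters come from RefSeq, build GRCr8, which may differ from the authors' build.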

Additional observations from a re-analysis of the deposited data

How the results depend on the processing

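No member passed the adjusted threshold under any of 17 alternatives, and the smallest adjusted p of any member was 0.745 (limma, Stx7 with array weights). The log2 fold change of Stx7 ran from -0.397 to -0.268 when single libraries were left out and was -0.264 without control 2 and PDN 3 together, where its unadjusted p was 0.0709. The members' median ran from -0.00802 (without PDN 2) to 0.0452 (upper-quartile scaling), and was also below 0 without control 2 (-0.00204). Of 22 named members, 15 kept their sign under every alternative in which they were tested, which was all 17 except for Syt15, tested in 16 because it falls below the stricter filter.

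Over all genes the count of 0 became 1 without the filter and with robust empirical Bayes, 2 in the whole-number table and 9 without control 2 and PDN 3 together. With single libraries left out it ran from 0 to 6 (4 without PDN 1, 6 without PDN 3, 3 without control 1, 2 without control 3). In the pathway list it became 1 (Vps33a) in the whole-number table. The cause was not tested.

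Signs turned as follows. Syt4 was at 0.00659 with median-of-ratios scaling, 0.00763 with upper-quartile scaling, 0.0064 in the whole-number table and 0.0195 without control 2 and PDN 3. Syt11 was at 0.00788, 0.00893 and 0.00767 in the first 3 of these. Without control 2 and PDN 3, Stx4 was at 0.0278, Stxbp5 at -0.00884 and the Unc13b to Unc13a ratio at 0.0732. With single libraries left out, the ranges were -0.0229 to 0.219 for Vamp2, -0.13 to 0.0294 for Stx1a, -0.126 to 0.055 for Stx4, -0.00246 to 0.102 for Stxbp5, -0.0797 to 0.0272 for Syt4, -0.047 to 0.0162 for Syt11 and -0.0309 to 0.0781 for Stx12. For log2 ratio differences they were -0.0675 to 0.126 for Vamp1 to Vamp2, -0.054 to 0.108 for Syt2 to Syt1, -0.133 to 0.105 for Cplx2 to Cplx1 and -0.182 to 0.0804 for Unc13b to Unc13a.

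The sources used here do not say whether libraries of the same replicate number were paired. Deviations of same-numbered libraries correlated at 0.171, -0.12 and -0.0865 across genes. The largest correlation was 0.269, between PDN 3 and control 2, the libraries with the most muscle RNA. Such correlations cannot decide whether the libraries were paired. With the replicate number as a block, 0 members were called, 2 instead of 1 had an unadjusted p under 0.05 (Stx7 and Vamp3), and the median stayed at 0.0226. PDN 1 and control 1 correlated best with each other, and no other library correlated best with its own number. The 9 members below the filter have values and no test.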
